A study of Mus musculus with 6 samples.

Results

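Endothelial adhesion and sinusoidal genes were followed in mouse liver after a short exposure to interleukin-6 (IL-6), a cytokine that signals through gp130 and the transcription factor STAT3. The set was defined by gene symbol, with earlier results of these data known. It holds 6 leukocyte adhesion molecules (Icam1, Icam2, Vcam1, Sele, Selp and Pecam1) and 4 endothelial identity genes (Cdh5, Stab2, Lyve1 and Clec4g). Of these 10 genes, 9 had a probe set with exactly 1 gene symbol in the platform table, out of 19938 genes tested. Clec4g had a further probe set, which gave 10 member probe sets among the 35556 of the table. Selp was not analysed here.

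The IL-6 group was 3 arrays of whole liver taken 1 h after 100 ng of IL-6 per mouse, and the saline group was 3 arrays of whole liver taken 1 h after saline. Both injections were intraperitoneal. All animals were male C57BL6 mice, 10 weeks old, fasted for 16 h beforehand, with no allele named in the labels. The labels list the arrays as separate samples and do not say whether 1 mouse gave 1 array. The spread behind each p-value is therefore that of these arrays and may be technical.

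Leukocytes leave the blood by rolling on selectins, then binding immunoglobulin-superfamily ligands such as ICAM-1 and VCAM-1 through their integrins, then crossing endothelial junctions. Inflammatory cytokines such as TNF and IL-1 induce E-selectin, VCAM-1 and ICAM-1 through NF-kappaB, and the ICAM-1 promoter also carries a well-studied STAT element. The sinusoids of the liver are lined by a specialised, fenestrated endothelium that clears macromolecules through scavenger receptors. Several adhesion molecules also occur outside endothelium: hepatocytes and Kupffer cells can make ICAM-1, and platelets and leukocytes carry PECAM-1.

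The promoters of Icam1 and Sele are shown because Icam1 came nearest to the test's threshold and both genes are known to be induced by cytokines. The RefSeq promoter table (build GRCm38.p6) held a window for 5 members, Icam1, Sele, Selp, Stab2 and Clec4g, each of 300 bases from 250 before to 50 after the start site. Capitals mark matches to 3 motifs, searched on both strands: TTCNNNGAA for STAT, GGNNNTTCC for NF-kappaB and TGANTCA for AP-1. The Icam1 window is chr9:21015690-21015989 and the Sele window is chr1:164047984-164048283, both on the plus strand.
Icam1: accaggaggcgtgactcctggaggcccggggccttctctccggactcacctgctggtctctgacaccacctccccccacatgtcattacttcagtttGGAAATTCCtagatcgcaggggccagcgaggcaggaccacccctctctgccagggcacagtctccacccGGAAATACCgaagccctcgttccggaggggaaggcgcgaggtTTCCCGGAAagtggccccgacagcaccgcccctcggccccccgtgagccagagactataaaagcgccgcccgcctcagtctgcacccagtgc
Sele: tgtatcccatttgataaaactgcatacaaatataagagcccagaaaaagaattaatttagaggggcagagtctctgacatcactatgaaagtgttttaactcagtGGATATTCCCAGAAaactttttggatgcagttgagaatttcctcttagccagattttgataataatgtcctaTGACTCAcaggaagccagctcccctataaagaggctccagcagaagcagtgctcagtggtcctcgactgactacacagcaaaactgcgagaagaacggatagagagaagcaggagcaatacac

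The Icam1 window held the STAT motif TTCCCGGAA with its first base at -42 from the start site, and NF-kappaB motifs at -153 and -84. The Sele window held the STAT motif TTCCCAGAA at -140, which overlapped the NF-kappaB motif GGATATTCC at -145, and an AP-1 motif at -73. The Selp window held an AP-1 and an NF-kappaB motif, and those of Stab2 and Clec4g held none of the 3. Among all 32851 windows of that length, 8.30% held the STAT motif, 18.5% the NF-kappaB motif and 7.81% the AP-1 motif. A match describes letters in the window and shows neither binding nor use of the site.

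The livers carried the labelled tissue's markers, with the albumin gene Alb between 13.40 and 13.45 on the log2 scale after IL-6 and between 13.36 and 13.40 after saline. They also responded to the cytokine. Socs3, the feedback inhibitor of this pathway, had log2 values of 9.57, 9.45 and 9.63 after IL-6, against 6.61, 6.42 and 6.18 after saline (difference 3.15 ± 0.11, standard error, limma adjusted p = 1.45e-06). On the second principal component (23.1% of the variance), IL-6 replicate 3 (-13.2) and saline replicate 2 (-11.6) stood apart from the other 4 arrays (1.83 to 9.65).

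One hour after IL-6, no member passed the test over all genes. Icam1 came nearest, at 1.33-fold of saline, with all IL-6 arrays above all saline arrays. The other adhesion molecules and the endothelial identity genes had overlapping groups and differences between -0.26 and 0.10 on the log2 scale. At a limma adjusted p under 0.05, 0 of 9 members were called, where 0.421% of all genes were, 0.386% higher and 0.0351% lower. At an unadjusted limma p under 0.05, 1 of 9 members passed, Icam1, against 6.62% of all genes (3.78% higher and 2.83% lower). The groups did not overlap in 1 of 9 members, against 11.6% of all genes (6.15% with IL-6 higher and 5.48% with IL-6 lower). Positive differences were found in 7 of 9 members, against 51.1% of all genes. When every probe set was tested, 0 of the 10 member probe sets were called, against 0.0478% of all probe sets. A share of 0 in so small a set is near that background and says little about the set. The median log2 difference was 0.076 over the members and 0.0026 over all genes.

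**Figure D1:**
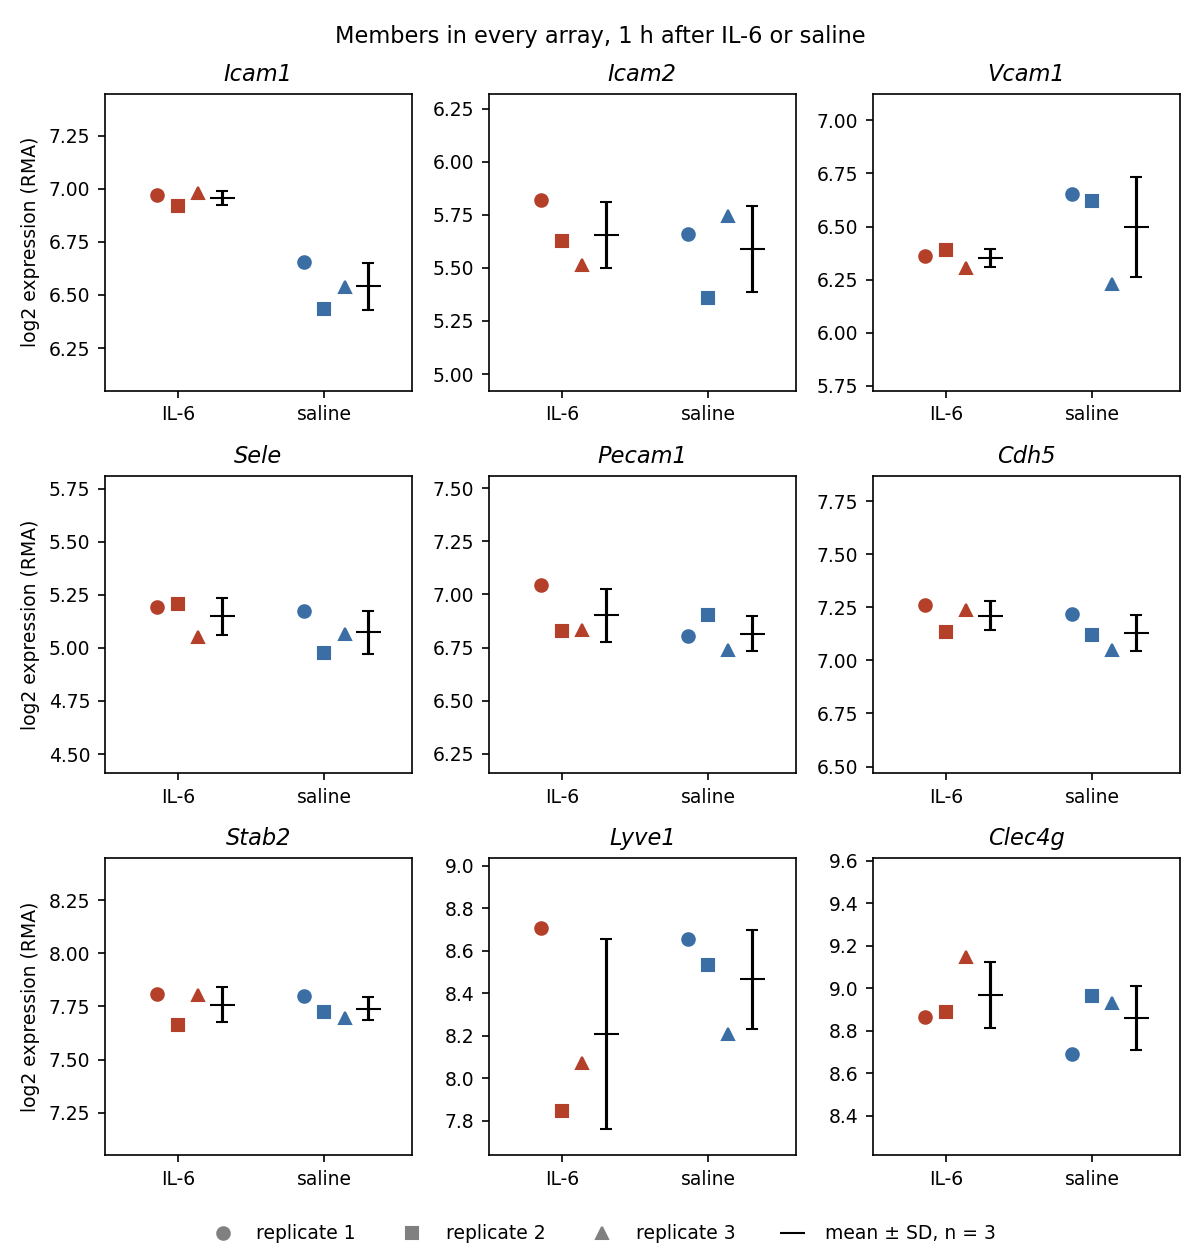
Log2 expression (RMA) of each measured member in every array, IL-6 at left and saline at right, with the mean ± SD of 3 arrays beside the points and the same span of log2 units in every panel. The Icam1 values after IL-6 (6.92 to 6.98) lie above those after saline (6.43 to 6.65), and in the other 8 members the groups overlap.

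Icam1 (probe set 10583519) encodes the endothelial ligand of the leukocyte integrins LFA-1 and Mac-1. It had log2 values of 6.97, 6.92 and 6.98 after IL-6 and 6.65, 6.43 and 6.54 after saline. The lowest IL-6 array stood above the highest saline array, and the IL-6 arrays lay within 0.063 of each other, against 0.22 for the saline arrays. The means were 6.96 ± 0.03 after IL-6 and 6.54 ± 0.11 after saline (SD, n = 3 each). The log2 difference was 0.42 ± 0.08 (standard error, 95% interval 0.23 to 0.60, limma adjusted p = 0.0984), which missed the threshold. Icam1 ranked at 107 of 19938 genes by p, where 84 genes were called.

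Whether Icam1 passed depended on the variance model and on the genes tested with it. It was called higher with a prior variance that follows level (limma adjusted p = 0.0483, and 0.0450 with robust fitting) and when genes below the median level were left out (limma adjusted p = 0.0316). Over all 18 alternatives its limma adjusted p ran from 0.0316 to 0.554 and its difference from 0.35 to 0.47. With 3 arrays a group, the smallest p that exact permutation allows is 0.1.

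By root mean square distance between profiles centred on their own means over the 6 arrays, the 5 genes nearest to Icam1 were Cpeb4 (0.031), Unc13b (0.036), Zcwpw1 (0.038), Slc9a3r1 (0.046) and Zfp867 (0.050). Cpeb4, a regulator of mRNA polyadenylation, had log2 values of 9.08, 8.92 and 9.03 after IL-6, against 8.72, 8.50 and 8.57 after saline. Slc9a3r1, a membrane scaffold, had a difference of 0.44 ± 0.08 (limma adjusted p = 0.0531). None of these 5 genes passed the threshold, and none is a member of a list used here.

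Icam2 (10392177), a ligand of LFA-1 that resting endothelium carries constitutively, had log2 values of 5.82, 5.63 and 5.51 after IL-6 and 5.66, 5.36 and 5.75 after saline. The groups overlapped, with the lowest and the second highest value both in saline arrays. The difference was 0.066 ± 0.118 (standard error, 95% interval -0.20 to 0.33, limma adjusted p = 0.965). Its sign turned on leaving out IL-6 replicate 1 (-0.017), and also on leaving out saline replicate 2 (-0.049).

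Vcam1 (10501608), the ligand of the integrin VLA-4, had log2 values of 6.36, 6.39 and 6.31 after IL-6 and 6.65, 6.62 and 6.23 after saline. The IL-6 arrays lay below saline replicates 1 and 2 and above saline replicate 3. The difference was -0.15 ± 0.11 (standard error, 95% interval -0.40 to 0.11, limma adjusted p = 0.908). It was -0.28 without saline replicate 3, and -0.070 and -0.087 without saline replicate 1 or 2.

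Sele (10351182) encodes E-selectin, on which leukocytes roll. Its log2 values were 5.19, 5.20 and 5.05 after IL-6 and 5.18, 4.98 and 5.06 after saline. The groups overlapped, and the level was low, with the IL-6 mean at 5.15 ± 0.09 and the saline mean at 5.07 ± 0.10 (SD, n = 3 each), against a median of 5.77 over all genes. The difference was 0.076 ± 0.084 (standard error, limma adjusted p = 0.945). It was 0.028 with saline replicate 2 left out and 0.13 with saline replicate 1 left out. Its 95% interval reached from 0.92-fold to 1.20-fold, on the scale of these arrays. At this level the part of background in the signal was not assessed.

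**Figure D2:**
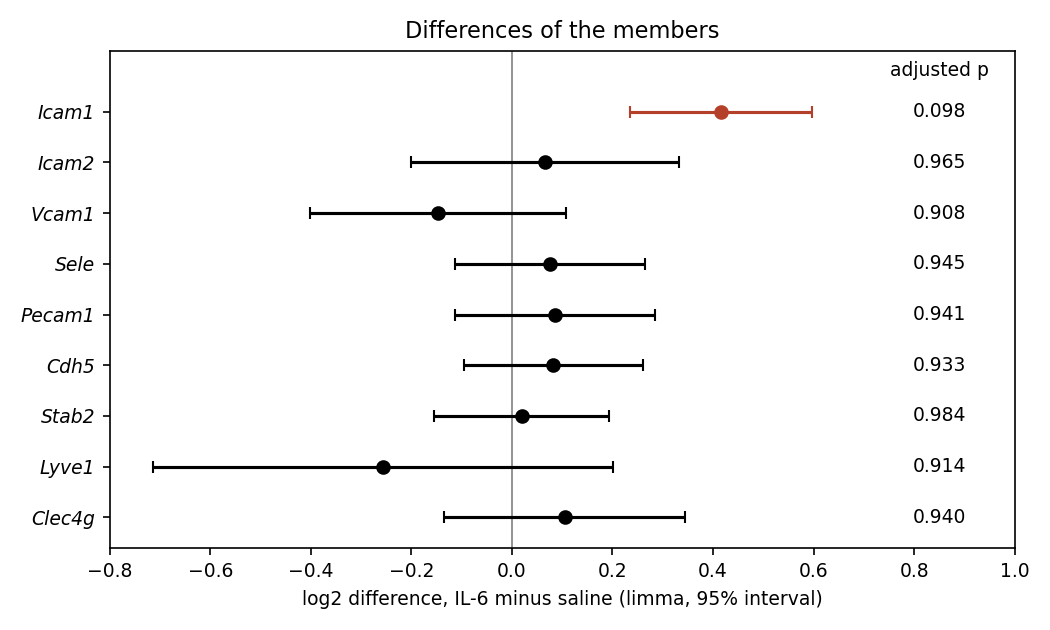
Log2 difference, IL-6 minus saline, of each measured member with its 95% interval from limma, and its adjusted p at right. The interval of Icam1 (0.23 to 0.60), drawn in red because its groups did not overlap, lies above 0, and those of the other 8 members include 0.

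Pecam1 (10392221), an adhesion molecule of endothelial junctions, had log2 values of 7.05, 6.83 and 6.83 after IL-6 and 6.81, 6.91 and 6.74 after saline. IL-6 replicate 1 was the highest array, and the other IL-6 arrays lay within the saline range. The difference was 0.086 ± 0.088 (standard error, 95% interval -0.11 to 0.28, limma adjusted p = 0.941), and 0.014 without IL-6 replicate 1.

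Cdh5 (10574438) encodes VE-cadherin, the cadherin of endothelial adherens junctions. Its log2 values were 7.26, 7.13 and 7.24 after IL-6 and 7.22, 7.12 and 7.05 after saline, with overlapping groups. The difference was 0.082 ± 0.079 (standard error, 95% interval -0.096 to 0.26, limma adjusted p = 0.933). It was 0.042 with saline replicate 3 left out and 0.13 with saline replicate 1 left out. In bulk tissue, fewer cells of a type and less RNA per cell cannot be told apart, so these values describe whole liver.

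Stab2 (10371506) encodes stabilin-2, the hyaluronan scavenger receptor of sinusoidal endothelium. It varied least over the arrays among the 9 members, by 0.15 on the log2 scale, with 7.81, 7.66 and 7.81 after IL-6 and 7.80, 7.72 and 7.70 after saline. The difference was 0.019 ± 0.077 (standard error, 95% interval -0.15 to 0.19, limma adjusted p = 0.984), and its sign turned in 4 of 18 alternatives.

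Clec4g (10576774), which encodes the lectin LSECtin of sinusoidal endothelium, had log2 values of 8.87, 8.89 and 9.14 after IL-6 and 8.69, 8.97 and 8.93 after saline. The groups overlapped, and IL-6 replicate 3 was the highest array. The difference was 0.10 ± 0.11 (standard error, 95% interval -0.13 to 0.34, limma adjusted p = 0.940), which shrank to 0.015 with IL-6 replicate 3 left out and to 0.018 with saline replicate 1 left out. The other probe set of Clec4g (10576772) averaged 4.55 ± 0.18 after IL-6 and 4.36 ± 0.20 after saline (SD, n = 3 each), below the 25th percentile of all genes (4.59). Its difference was 0.19 ± 0.13 (standard error, limma adjusted p = 0.892 over every probe set).

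Lyve1 (10566934) encodes a hyaluronan receptor of sinusoidal and lymphatic endothelium, which some tissue macrophages also carry. It had log2 values of 8.71, 7.84 and 8.07 after IL-6 and 8.66, 8.54 and 8.21 after saline. IL-6 replicates 2 and 3 lay below every saline array, while IL-6 replicate 1 was the highest of all 6. The means were 8.21 ± 0.45 after IL-6 and 8.47 ± 0.23 after saline (SD, n = 3 each). The difference was -0.26 ± 0.20 (standard error, 95% interval -0.71 to 0.20, limma adjusted p = 0.914). Leaving out IL-6 replicate 1 gave -0.51, and leaving out IL-6 replicate 2 gave -0.074, so a single array moved it across that range.

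Lyve1 was also the most variable member within groups. Its pooled within-group SD was 0.36, larger than that of 99.3% of all genes, where the median over all genes was 0.11 and the other 8 members ran from 0.071 (Stab2) to 0.18 (Icam2). The further sinusoidal markers did not show its pattern in every array. In IL-6 replicate 2, where Lyve1 stood 0.62 below its saline mean, Gpr182, a receptor of sinusoidal endothelium, was also lowest of the 6 arrays at 6.03, as was the scavenger receptor gene Stab1 at 7.38. Of the sinusoidal list, Oit3 (7.72), Mrc1 (7.37), F8 (6.83) and Clec1b (6.65) were lowest there too, as was the member Stab2 (7.66). Ehd3 (8.19), Gata4 (7.33), Maf (7.33) and Clec4d (4.75) of that list were instead highest in that array. The mean deviation of the whole sinusoidal list was -0.039 there, against 0.0038 and 0.087 in the other IL-6 arrays and -0.021 to 0.013 in saline arrays. In IL-6 replicate 3 Lyve1 stood 0.39 below its saline mean, while Gpr182 had its second highest value (6.61), and Oit3 (8.09) and Dnase1l3 (7.93) had their highest. The 12 Kupffer cell and macrophage markers held 0 called genes and 11 positive differences, with a summed linear level of 1196 to 1445 after IL-6 and 1115 to 1261 after saline. Their mean log2 deviation from saline was highest in IL-6 replicate 2 (0.28), the array of lowest Lyve1, against 0.013 and 0.031 in the other IL-6 arrays and -0.098 to 0.078 in saline arrays. The part of these shifts in the Lyve1 values was not tested.

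**Figure D3:**
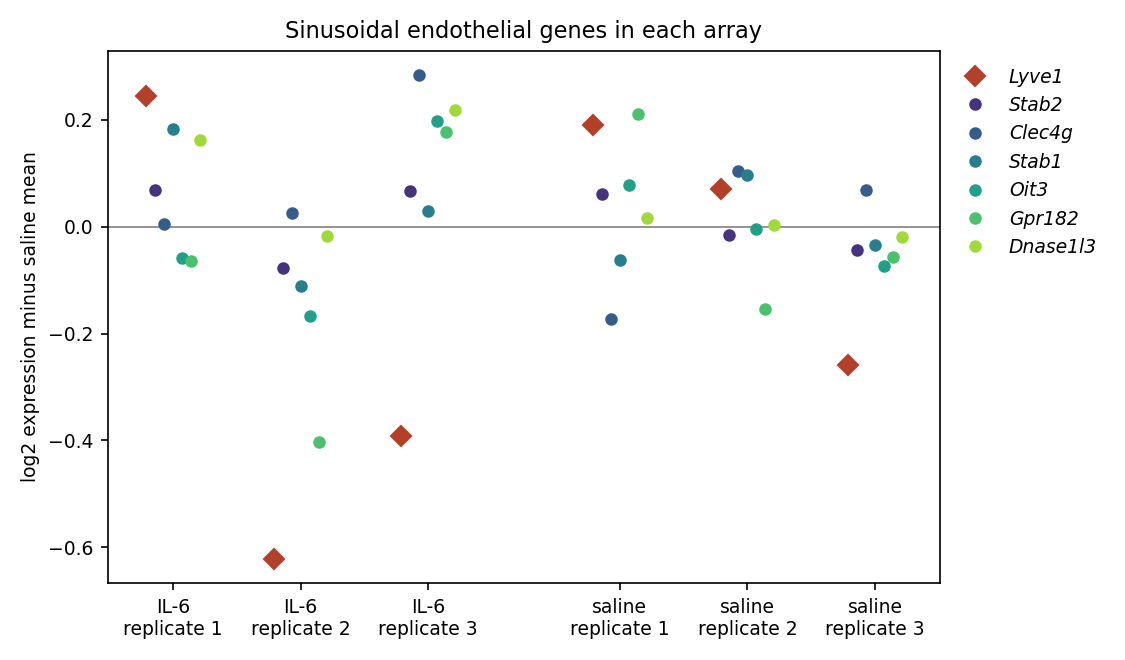
Log2 expression minus the gene's saline mean for 7 sinusoidal endothelial markers in each of the 6 arrays, IL-6 arrays at left and saline arrays at right. Lyve1 (diamonds) ran from 0.24 above to 0.62 below its saline mean within the IL-6 group, while Stab2 stayed within 0.078 of its saline mean in all arrays.

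Across arrays, the median deviation of the 9 members from their saline means was 0.13, 0.0099 and 0.017 in the IL-6 arrays and 0.088, -0.0088 and -0.044 in the saline arrays. The groups overlapped, with IL-6 replicate 1 highest and saline replicate 1 next. Of 24 pan-endothelial identity genes 0 were called. Differences were positive in 21 of the 24, beside 51.1% of all genes, and their median was 0.032. S1pr1, the sphingosine 1-phosphate receptor of endothelium, had 8.15, 8.10 and 8.19 after IL-6 and 8.14, 7.57 and 7.84 after saline (0.29 ± 0.13, limma adjusted p = 0.750). Adgrl4 and the von Willebrand factor gene Vwf had differences of 0.16 ± 0.09 and -0.11 ± 0.08.

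Of 21 sinusoidal endothelial genes 0 were called and 11 had positive differences, with a median of 0.0077. That list also holds genes that other liver cells express. Cd36, a fatty acid and scavenger receptor that hepatocytes carry as well, had 9.18, 9.20 and 9.35 after IL-6 and 9.14, 8.67 and 8.78 after saline (0.38 ± 0.12, limma adjusted p = 0.505). The transcription factor gene Maf had a difference of 0.18 ± 0.07 and the lectin gene Cd209b had -0.29 ± 0.10 (limma adjusted p of 0.686 and 0.572). Cd209b was dim, with a mean of 4.49 after IL-6, under the lower quartile of level (4.59). Groups did not overlap in 2 of the 21 with IL-6 higher, Cd36 and Maf, beside 6.15% of all genes. They lay apart in 2 with IL-6 lower, Cd209b and Bmp6 (-0.11, named after its value was seen), beside 5.48% of all genes. Of 19 other endothelial adhesion and junction genes 0 were called. Among them Ackr1, the chemokine-binding receptor of venules, had 0.18 ± 0.08, the tight junction gene Ocln -0.17 ± 0.10 and the caveolin gene Cav1 0.16 ± 0.14. Ackr1 was dim, with means of 4.14 after IL-6 and 3.96 after saline, under that lower quartile of level. The counts of 0 stand beside an unadjusted limma p under 0.05 in 1 higher gene of the pan-endothelial list, 2 higher and 1 lower of the sinusoidal list, and 1 higher of the adhesion and junction list. Over all genes, 0.421% were called and 6.62% had such an unadjusted p. Counts of 0 called in lists of this size are near the called share and say little.

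The leukocyte side of these contacts was likewise without a call. Of 13 integrin, selectin and ligand genes of leukocytes, 0 passed at a limma adjusted p under 0.05, beside 0.421% of all genes. At an unadjusted limma p under 0.05, 0 of them passed, beside 6.62% of all genes. Differences were positive in 10 of the 13, beside 51.1% of all genes, with a median of 0.090. Counts of 0 called in lists of this size, here and among the cell type markers below, are near the called share and say little. The beta-2 partner chains Itgad (0.22 ± 0.10) and Itgax (0.21 ± 0.10) and the beta-7 integrin gene Itgb7 (0.19 ± 0.10) had the smallest p (limma adjusted p from 0.790 to 0.832). The other probe set of Itgad had a difference of -0.11. Markers of blood cells that could bring adhesion molecules into the sample gave 0 called of 7 for platelets, 10 for T and NK cells and 7 for B cells. Their mean deviations from saline ran from -0.12 to 0.043 in IL-6 arrays and from -0.065 to 0.078 in saline arrays. Groups lay apart with IL-6 lower in 3 of 10 T and NK and 1 of 7 platelet markers, beside 5.48% of all genes. These were Cd8a (-0.15), Prf1 (-0.11), Cd4 (-0.060) and Gp9 (-0.20). The groups overlapped in all B cell markers. Of 12 neutrophil markers 1 was called, higher, beside 0.386% of all genes. It was S100a8, at 4.31, 4.35 and 4.07 after IL-6 and 3.59, 3.51 and 3.69 after saline (0.65 ± 0.09, limma adjusted p = 0.0211). Both of its means were dim, under the lower quartile of level (4.59). The neutrophil list as a whole had 5 of 12 positive differences. Ly6g, also dim, had -0.27 ± 0.10 with overlapping groups (limma adjusted p = 0.655), and Elane had -0.14 ± 0.09 (limma adjusted p = 0.884). Groups lay apart in 1 of the 12 with IL-6 higher, S100a8, beside 6.15% of all genes. They lay apart in 1 with IL-6 lower, Elane, beside 5.48% of all genes. No call was made among 12 stellate cell and fibroblast, 11 hepatocyte, 5 cholangiocyte, 6 lymphatic endothelial and 2 erythroid markers. The summed linear level did not overlap between groups for the stellate cell and fibroblast markers, at 2699 to 2787 after IL-6 and 2335 to 2674 after saline, with 11 of 12 positive differences. Dcn and Ecm1 had the highest levels of the 12 and so weigh most in that sum, and the groups overlapped in both. The summed level did not overlap for the cholangiocyte markers either, at 287 to 311 after IL-6 and 249 to 260 after saline, with 4 of 5 positive differences. Among these Sox9, a transcription factor of bile duct cells, had a log2 difference of 0.41 ± 0.11 without overlap (limma adjusted p = 0.326), close in size to that of Icam1. Sox9 had the highest level of the 5 and so weighs most in that sum, and the groups overlapped in the other cholangiocyte markers. Single markers lay apart with IL-6 higher in 1 of 5 cholangiocyte, 1 of 12 stellate cell and fibroblast and 1 of 6 lymphatic endothelial genes, beside 6.15% of all genes. The stellate and the lymphatic marker are the same gene, Reln (0.13), which is in both lists. With IL-6 lower, 1 of 11 hepatocyte markers lay apart, Hpd (-0.17), beside 5.48% of all genes. The part of other cell types in the values of the members was not tested.

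In the same livers, some other genes of the inflammatory programme did rise. Of 23 endothelial activation and NF-kappaB responsive genes 4 were called, all higher, beside 0.386% of all genes, and 19 did not pass. Cxcl1, a neutrophil-attracting chemokine, had 10.23, 10.26 and 10.29 after IL-6 and 7.12, 7.13 and 6.88 after saline (3.22 ± 0.09, limma adjusted p = 4.32e-07). The others were the transcription factor gene Irf1 (1.07 ± 0.11), Tifa, an adaptor upstream of NF-kappaB (0.97 ± 0.12), and Nfkbiz, a nuclear IkappaB protein (0.55 ± 0.08). The other probe set of Irf1 had a difference of 0.022, and which of them reports the gene was not settled. Differences were positive in 13 of the 23, beside 51.1% of all genes, and the median of the list was 0.035. Groups did not overlap in 6 genes with IL-6 higher, beside 6.15% of all genes, and in 2 with IL-6 lower, beside 5.48%. Those 2 were Nfkbia and Ccl2 (-0.13, named after its value was seen). The values are of whole liver and do not show which cells changed.

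At an unadjusted limma p under 0.05, 6 genes of that list were higher and 1 lower, of which 3 were not called. These 3 fall outside the rule for named genes and were chosen after their values were seen. The TNF receptor gene Tnfrsf1a had a difference of 0.33 ± 0.09 (limma adjusted p = 0.403) and the apoptosis inhibitor gene Birc3 one of 0.17 ± 0.07 (limma adjusted p = 0.686). Nfkbia, the inhibitor that NF-kappaB itself induces, had 8.03, 8.17 and 8.25 after IL-6 and 8.38, 8.37 and 8.35 after saline, a difference of -0.21 ± 0.08 (limma adjusted p = 0.630). In each of the 3 the groups did not overlap, with the IL-6 arrays above in Tnfrsf1a and Birc3 and below in Nfkbia.

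Of 15 IL-6 signalling and feedback genes 7 were called, all higher, beside 0.386% of all genes. These were Socs3, the kinase gene Pim1 (1.52 ± 0.08), Cish (1.22 ± 0.16), Bcl3 (1.18 ± 0.08), the AP-1 subunit gene Junb (1.07 ± 0.10), Socs2 (0.86 ± 0.13) and Stat3 (0.52 ± 0.09, limma adjusted p = 0.04996). The other probe sets of Socs3 and Socs2 had differences of 1.79 and 1.41, which did not pass when every probe set was tested (limma adjusted p = 0.125 and 0.357). The log2 difference of Icam1 (0.42) was smaller than each of these 7, a contrast between genes that was not tested. The median of the list was 0.29.

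**Figure D4:**
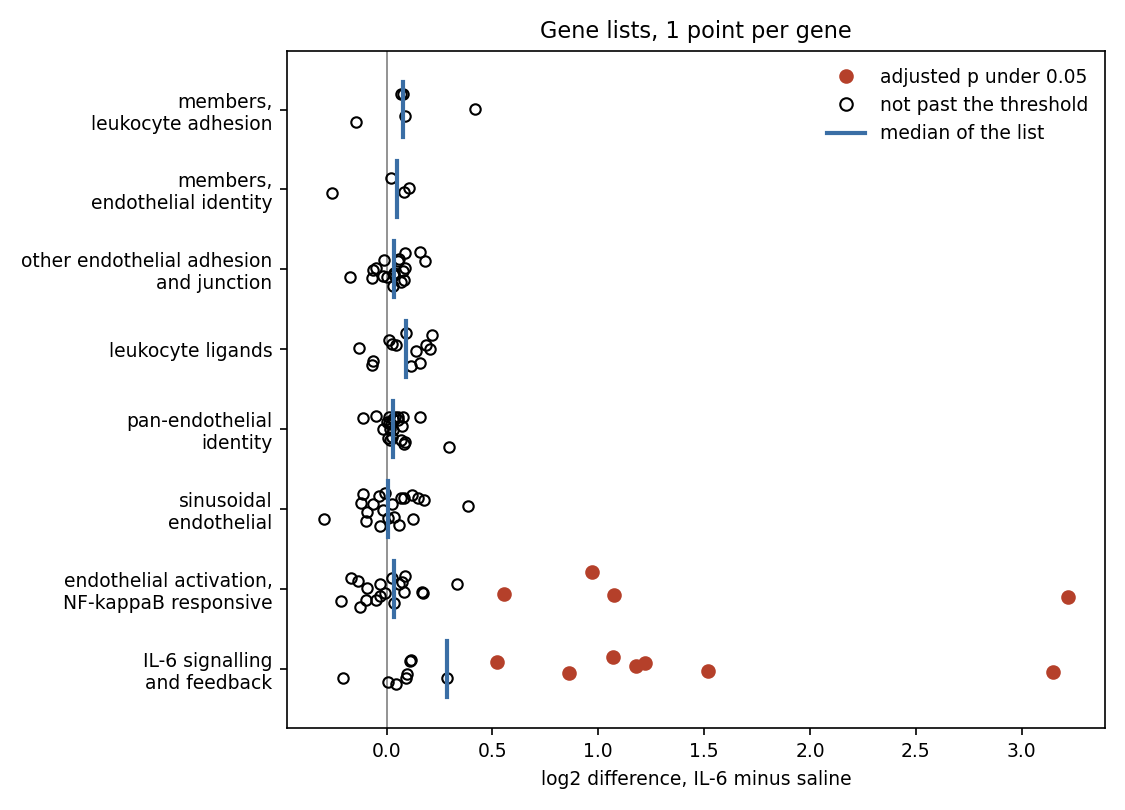
Log2 difference, IL-6 minus saline, of every measured gene in 8 lists, 1 point per gene, with filled points past a limma adjusted p of 0.05 and a bar at the median of each list. Filled points occur in 2 lists, 4 of 23 endothelial activation and NF-kappaB responsive genes and 7 of 15 IL-6 signalling genes. None occurs among the members or the other endothelial and leukocyte lists.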

How the data were processed

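Total RNA of whole liver was hybridised to 6 Affymetrix arrays of 1 colour. The authors deposited log2 expression for each probe set, and the submitters' processing notes name RMA as its source. This method corrects background, normalizes quantiles across arrays and summarises probes, which can shrink large changes and hide a shift shared by most genes. Its settings and the build are not given in the sources at hand. Array medians lay between 5.42 and 5.48, and the number of arrays limits the precision.

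Of 35556 probe sets, the platform table gave 1 gene symbol to 21789, several to 1621, and did not list 12146. Where a gene had several probe sets (999 genes), that of highest mean over the 6 arrays was kept, which left 19938 genes without a filter on level. IL-6 was compared with saline by limma (version 3.58.1, R 4.3.3; lmFit and eBayes, two-sided), with Benjamini-Hochberg adjustment over all genes and a threshold of 0.05. The script was tested on simulated data. Named genes were all members, Socs3, called genes of each list or its 3 of smallest p, and the 5 profiles nearest to Icam1. Marker lists of cell types are given as counts, with called markers and some others named. The members and lists were chosen with earlier results of these data known, and the motifs after the Icam1 sequence had been read, so no list was tested. Alternatives covered normalization, filters, probe set choice, variance prior, array weights, a replicate block, thresholds and left-out arrays. Plots used matplotlib 3.10.9 (Python 3.11.15).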

Additional observations from a re-analysis of the deposited data

How the results depend on the processing

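No member was called lower under any of 20 alternatives. Icam1 was the 1 member called higher when genes below the median level were left out, with a prior variance that follows level (robust or not), at an adjusted p under 0.1, and at an unadjusted p under 0.05. Icam1 was called in none of the 6 fits without 1 array (limma adjusted p = 0.102 to 0.354). Differences turned sign for Icam2 without IL-6 replicate 1 (-0.017) or saline replicate 2 (-0.049), over a leave-one-out range of -0.049 to 0.14. They did so for Stab2 without IL-6 replicate 1 (-0.0059), IL-6 replicate 3 (-0.0044) or saline replicate 3 (-0.0027), over a leave-one-out range of -0.0059 to 0.068, and without both arrays apart on the second component (-0.013). No other member turned sign. The median of the members was 0.076 in the main fit and ran from 0.014, without IL-6 replicate 1, to 0.082. It moved by less than the SD of the single-array medians within groups (0.069). That SD describes single arrays and is not the error of a difference between groups.

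Over all genes, 77 higher and 7 lower calls became 16 and 1 with every probe set, 31 and 2 without both arrays apart on the second component, and 754 and 565 at an unadjusted p under 0.05. At an adjusted p under 0.1 there were 97 and 12. Leaving out an array gave 45 to 67 higher and 3 to 5 lower. With every probe set, more tests were adjusted for (35556), and the prior degrees of freedom were 2.56, against 5.28 over genes. Settings that leave out arrays used fewer samples.

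Whether equal replicate numbers mark pairs of arrays was not settled, since the correlations of so few arrays cannot decide it. Deviations of same-numbered arrays correlated at 0.076, -0.12 and -0.087, and those of differently numbered arrays at -0.10 to 0.18. With the replicate number as a block, 59 genes were higher and 6 lower, and Icam1 had a limma adjusted p of 0.181. The standard error of Lyve1 was 0.14 with that block, against 0.20 without (limma adjusted p = 0.911 with it), and that of Icam1 was 0.084, against 0.080. Sele and Icam2 lay below the median level and gave no value under that filter. Among the members, dim signals limit Sele and the second Clec4g probe set, since background per probe set was not assessed. The same limit holds for other dim genes named above, such as Ackr1 and S100a8. These alternatives were run for the members and for the counts over all genes, not for other single genes.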
